A study of Mus musculus with 8 samples.

Results

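The mitochondrial respiratory chain is built from a large set of nuclear genes, and their transcripts were followed here through adipogenic induction of C3H10T1/2, a mouse line of mesenchymal stem cells (MSCs), and of 3 knockdown derivatives. The members were taken by gene symbol: symbols that begin with Nduf, Uqcr, Atp5 or Cox4 to Cox8, together with *Sdha*, *Sdhb*, *Sdhc* and *Sdhd*, without *Cox7a1* and without pseudogene symbols. This gave 93 of the 41325 rows of each library. Of these, 87 had more than 1 RPKM (reads per kilobase of exon, scaled to library size) in at least 1 of the 8 libraries, as did 11513 of all rows, and 85 of the 87 had more than 1 RPKM in every library. The 6 members left out by this filter were *Cox4i2*, *Cox6b2*, *Cox7b2*, *Cox8c*, *Ndufa4l2* and 1 of the 2 rows named *Atp5o*.

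The libraries came from shControl cells, labelled wild type, and from cells that stably express a short hairpin RNA against *Kdm4d* (shKDM4D), *Nfib* (shNFIB) or *Mll1*, whose current symbol is *Kmt2a* (shMLL1). Each line was sequenced at day 0, when the cells were past confluence, and at day 5 after induction with insulin, dexamethasone and isobutylmethylxanthine, followed by medium with insulin and then without it, always with fetal bovine serum. Day 0 and day 5 were each represented by 1 library per line, so no comparison has a replicate check and no p-value is given. Per the study's methods the knockdown lines were isolated as drug-resistant clones, so a knockdown and a difference between clones cannot be told apart.

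Reads per gene could be recovered from the RPKM values, and the libraries held between 15842221 and 38202580 mapped reads. The intervals given with log2 ratios below are exact 95% intervals (Clopper-Pearson) of these reads, and they cover counting error only. *Nfib* stood at 9.92 and 17.0 RPKM in shControl cells at day 0 and day 5 and at 2.31 and 3.38 RPKM in shNFIB cells. *Kmt2a* stood at 5.17 and 5.27 RPKM in shControl cells and at 2.00 and 1.63 RPKM in shMLL1 cells. *Kdm4d* was at most 0.24 RPKM in any library, so its knockdown could not be checked at this depth. A set of 8 adipocyte marker genes summed to 808 RPKM in shControl cells at day 5, against 25.6 in shKDM4D, 0.936 in shNFIB, with 2.89 in shMLL1 cells, with *Adipoq* and *Fabp4* above 0 and *Lep* at 0 in each of these. The defining mesenchymal markers *Col1a1*, *Vim* and *Pdgfrb* were present in all 8 libraries, but *Thy1*, a surface marker of MSCs, was at 11.1 RPKM or more in shControl and shMLL1 and at 0.139 RPKM or less in shKDM4D and shNFIB cells. Of 6 brown adipocyte markers, *Cidea* was at 0 and *Ucp1* had at most 1 read, and *Cox7a1* was at 0.140 RPKM (2 reads) and 1.26 (13 reads) in shControl at day 0 and day 5 and at 0.0865 (1 read) in shKDM4D at day 5. The 2 transcripts with ribosomal RNA sequence took 7.95% to 10.5% of the reads at day 0 and 3.07% to 3.62% at day 5, and this share enters every RPKM value.

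In the inner mitochondrial membrane, complex I oxidises NADH and complex II oxidises succinate, and both pass the electrons to ubiquinone. Complex III hands them on to cytochrome c, complex IV to oxygen, and the proton gradient that complexes I, III and IV build drives ATP synthesis by complex V. All complexes except complex II also hold subunits encoded by mitochondrial DNA, and fat cell differentiation is known to be accompanied by growth of the mitochondrial network. In bulk RNA, a different number of transcripts per cell and a different proportion of cell types cannot be told apart.

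The members were abundantly expressed. Their median level was between 29.5 RPKM (shNFIB, day 0) and 44.2 RPKM (shMLL1, day 5), beside 5.67 to 6.48 RPKM for all genes that passed the filter, and 76 to 80 of the 87 stood above that median in each library. Together they took 0.770% of the reads of shControl cells at day 0 and 0.928% at day 5. In shKDM4D cells the share was 0.724% at day 0 and 0.706% at day 5, for shNFIB 0.725% and 0.863%, and for shMLL1 0.828% and 0.876%. The share was thus larger at day 5 in every line but shKDM4D. Of the reads without the ribosomal RNA-like transcripts, however, the share in shMLL1 cells was 0.924% at day 0 and 0.903% at day 5, the opposite direction, while the other lines kept theirs (0.858% and 0.958%, 0.786% and 0.729%, 0.790% and 0.895% for shControl, shKDM4D and shNFIB).

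In shControl cells most respiratory chain genes were slightly higher at day 5 than at day 0. The median log2 ratio of day 5 over day 0 was 0.26 over the 87 members, beside 0.034 over all genes passing the filter. Of the members, 73 were higher and 14 lower at day 5 (all genes 5977 and 5522 of 11513). The counting interval lay above 0 for 57 members and below 0 for 11, counts not made over all genes. More than 1.5-fold higher were 12 members, beside 22.7% of all genes, and more than 1.5-fold lower were 3, beside 17.5% of all genes. Most of the members' differences were thus under 1.5-fold. With quantile scaling the members' median was 0.13, and without ribosomal RNA-like and mitochondrial reads 6 members instead of 12 were past 1.5-fold higher. The medians of the 5 complexes were close to one another, at 0.29 for complex I (36 subunits), 0.37 for complex II (4), 0.33 for complex III (8), 0.24 for complex IV (14) and 0.24 for complex V (16), and with quantile scaling those of complexes III, IV and V were 0.20, 0.14 and 0.10.

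**Figure D1:**
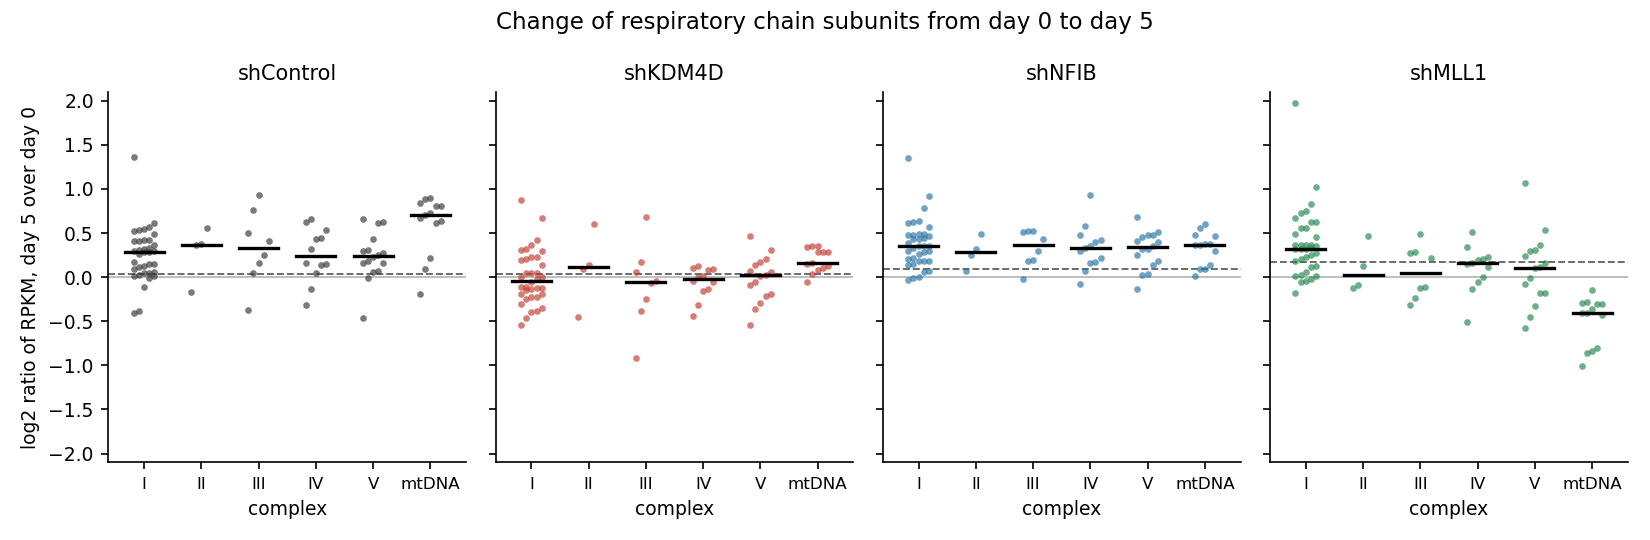
Log2 ratio of RPKM at day 5 over day 0 for each structural subunit (points) of complexes I to V and for the 13 protein genes of mitochondrial DNA (mtDNA), 1 panel per line; black bars are group medians and the dashed line is the median of all genes passing the filter. *Cox6a2* lies outside the axis in all panels but shNFIB and *Cox8b* is not drawn. The bars of complexes I to V sit between 0.24 and 0.37 in shControl and between -0.052 and 0.11 in shKDM4D, and the mtDNA bar is at 0.71 in shControl and -0.40 in shMLL1.

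The same ratio was then taken in the knockdown lines. In shKDM4D cells the median of the members was -0.0035 (all genes 0.033), with 42 higher and 45 lower at day 5 (all genes 5988 and 5499 of 11513). The medians of complexes I to V were -0.040, 0.11, -0.052, -0.022 and 0.020. More than 1.5-fold higher were 6 members (all genes 21.9%) and more than 1.5-fold lower were 5 (all genes 16.8%). In shNFIB cells the median was 0.34 (all genes 0.097), with 79 higher and 7 lower (all genes 6488 and 4991). Complexes I to V stood at 0.35, 0.28, 0.36, 0.33 and 0.34. More than 1.5-fold higher were 11 members (all genes 22.4%) and none was more than 1.5-fold lower (all genes 12.6%). In shMLL1 cells the median was 0.24 (all genes 0.17), with 64 higher and 22 lower (all genes 6788 and 4707). That median was 0.15, 0.047 and 0.11 under the 3 other scalings. Here the complexes spread out, with complex I at 0.32, complex IV at 0.16, complex V at 0.11, complex III at 0.052 and complex II at 0.021, and the medians of complexes II to V moved to between -0.12 and 0.070 under other scalings of the libraries. More than 1.5-fold higher were 15 members of shMLL1 cells (all genes 32.2%) and more than 1.5-fold lower was 1 (all genes 15.6%), which became 8 and 5 with quantile scaling.

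Set against the change in shControl cells gene by gene, 75 of 86 members had the lower change in shKDM4D cells (all genes 5458 of 11319). The median difference was -0.27 on the log2 scale (0.013 over all genes). The difference was -0.20 for complex I, -0.25 for complex II, -0.45 for complex III, -0.30 for complex IV and -0.27 for complex V. In shNFIB cells the median difference was 0.035 (0.065 over all genes) and in shMLL1 cells 0.00034 (0.15 over all genes). The lower change was seen for 36 and 43 of 86 members (all genes 4976 of 11309 and 4065 of 11356). By complex, I to V, the median differences were 0.086, -0.062, -0.062, 0.032 and 0.031 in shNFIB cells. In shMLL1 cells they were 0.12, -0.17, -0.33, -0.20 and -0.21. The differences of all 3 knockdown lines share the shControl libraries. Across the 4 lines, 34 of the 87 members were higher at day 5 in all 4 (39.1%, near the 36.6% of all genes), and 2 were lower in all 4 (*Cox5a* and *Ndufaf2*, 2.3%, beside 27.9% of all genes). Another 33 were higher in shControl and lower in shKDM4D cells (37.9%, beside 7.19% of all genes).

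Before induction the members' medians in the knockdown lines were close to the control. At day 0 the median log2 ratio over shControl was -0.085 in shKDM4D (all genes -0.0027), -0.10 in shNFIB (all genes 0.028) and 0.027 in shMLL1 cells (all genes -0.073). No member was more than 1.5-fold higher in any of the 3 lines (all genes 5.39%, 8.73% and 4.73%). More than 1.5-fold lower were 2 members in shKDM4D (all genes 8.72%), 5 in shNFIB (all genes 12.2%) and 2 in shMLL1 cells (all genes 15.9%). The muscle isoform gene *Cox6a2* was among them in each line, as were *Ndufa12* in shKDM4D (log2 ratio -0.66) and *Uqcrq* in shNFIB cells (-0.89). The counting interval lay below 0 for 32, 37 and 22 members in shKDM4D, shNFIB and shMLL1 cells. It lay above 0 for 17, 13 and 30, and these counts were not made over all genes.

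At day 5 the shKDM4D library stood apart from the other 3. Its median log2 ratio over shControl was -0.30 (all genes 0.0073), and 82 of the 87 members were lower (all genes 5643 of 11513). For 69 members the counting interval lay below 0, a count not made over all genes. This median was between -0.28 and -0.32 under every alternative scaling, filter and choice of members. More than 1.5-fold lower were 12 members (all genes 9.38%) and more than 1.5-fold higher was 1 (all genes 5.22%). All 36 complex I subunits were lower, as were 3 of 4 in complex II, all 8 in complex III, 13 of 14 in complex IV and 15 of 16 in complex V, with medians of -0.28, -0.32, -0.52, -0.28 and -0.35. The exceptions were *Sdhc*, *Cox6a2* and *Atp5g2*. Over shControl at day 5, shNFIB and shMLL1 cells had medians of -0.0037 (all genes 0.092) and 0.0034 (all genes 0.069). By complex, I to V, the medians were -0.056, -0.26, -0.22, 0.055 and 0.035 in shNFIB cells. In shMLL1 cells they were 0.076, -0.21, -0.11, -0.16 and -0.13. The medians of complexes II and III were thus below 0 in all 3 knockdown lines. That of complex I was below 0 in shKDM4D and shNFIB cells, and those of complexes IV and V in shKDM4D and shMLL1 cells. In shNFIB cells 3 members were more than 1.5-fold higher (all genes 14.6%) and 3 more than 1.5-fold lower (all genes 11.7%). In shMLL1 cells 2 members were more than 1.5-fold higher (all genes 12.4%) and 2 lower (all genes 8.76%).

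**Figure D2:**
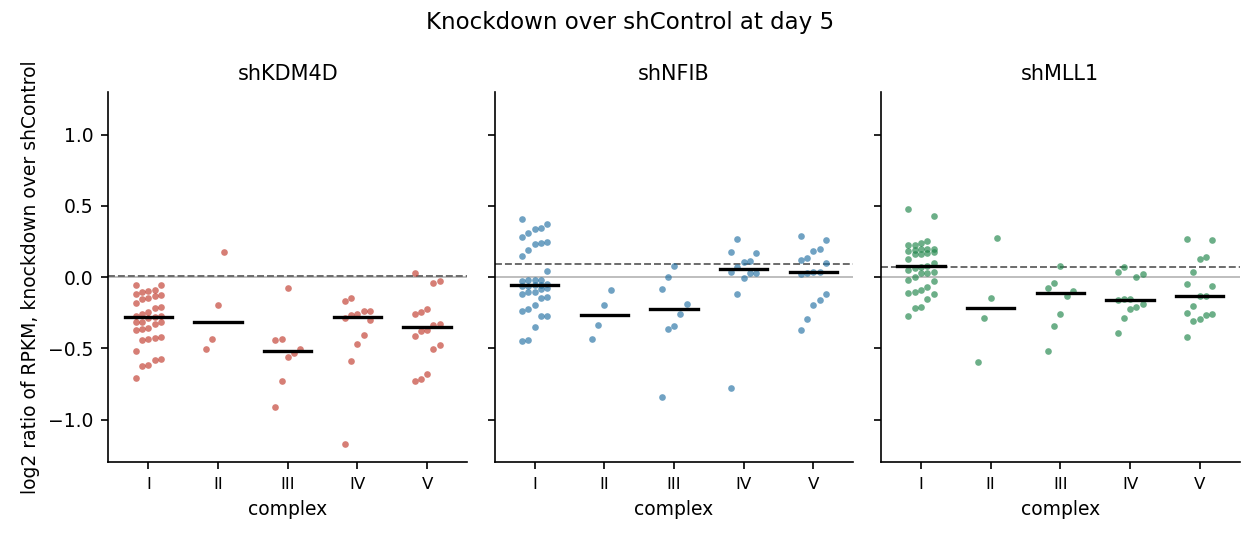
Log2 ratio of RPKM of each knockdown line over shControl at day 5 for each structural subunit (points) by complex, with group medians (black bars) and the median of all genes (dashed). *Cox6a2* and *Cox8b* lie outside the axis. Only *Sdhc* and *Atp5g2* are above 0 in the shKDM4D panel, whereas points fall on both sides of 0 in the shNFIB and shMLL1 panels.

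Among the 4 libraries of day 5, shKDM4D was the lowest for 67 of the 87 members (77.0%), beside 28.3% of all genes passing the filter. The count was 30 of 36 in complex I, 2 of 4 in complex II, 6 of 8 in complex III, 11 of 14 in complex IV and 13 of 16 in complex V. At day 0 shKDM4D was the lowest line for 24 members (27.6%), beside 21% of all genes, and shNFIB for 34 (39.1%), beside 22.1%. The highest library of day 5 was shNFIB for 33 members (37.9%, beside 33.2% of all genes), shMLL1 for 29 (33.3%, beside 29.4%) and shControl for 24 (27.6%, beside 17.3%), so that the first 2 shares were near those of all genes. Read against the same shares of all genes, complex I had its highest value in shMLL1 cells for 19 of 36 subunits (52.8%), complex III in shControl for 6 of 8 (75%), and complexes IV and V in shNFIB for 9 of 14 (64.3%) and 9 of 16 (56.2%). The order of the adipocyte marker sums was different, since shKDM4D had the second highest sum at day 5 and the lowest median over the members. Whether the marker level has a part in the differences between lines was not tested.

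**Figure D3:**
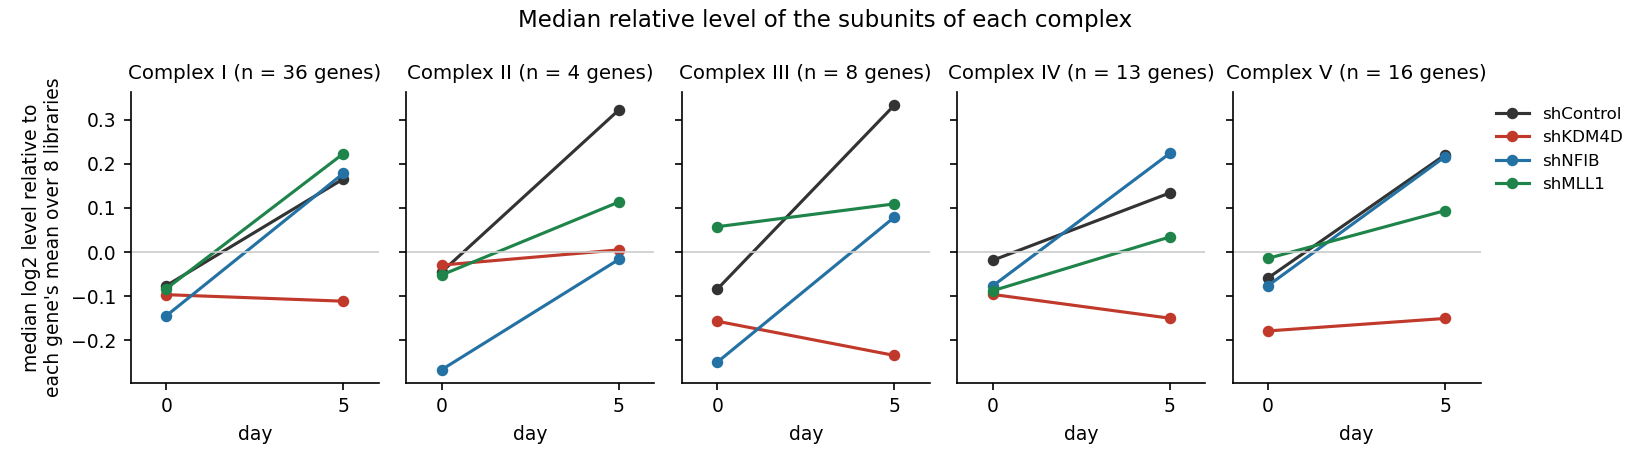
Median log2 level of the subunits of each complex at day 0 and day 5, relative to each gene's own mean over the 8 libraries, for subunits above 0 in every library (77 genes in all). The shKDM4D line ends below the other lines at day 5 in every panel except complex II, where shNFIB is at -0.017 and shKDM4D at 0.0049.

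Most subunits stayed within 2-fold over the 8 libraries. For the 77 subunits above 0 in every library, the highest library exceeded the lowest by a median of 1.598-fold, and 68 of them stayed under 2-fold. This spread was not taken over all genes, whose median level was lower. The 9 past 2-fold are among the genes described next, by complex.

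Complex I is the entry point for NADH. Its 7 core subunits, conserved from bacteria, had median log2 ratios of day 5 over day 0 of 0.29 in shControl, -0.054 in shKDM4D, 0.19 in shNFIB, with 0.059 in shMLL1 cells. The 29 accessory subunits stood at 0.28, -0.025, 0.36 and 0.35. The accessory median thus exceeded that of the 7 core subunits in both shNFIB and shMLL1 cells.

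*Ndufv3*, which encodes an accessory subunit of the NADH-oxidising arm (GRCm38 chr17:31520115-31531331, plus strand), had the largest increase of complex I in all 4 lines. It was at 27.9 RPKM at day 0 and 71.7 at day 5 in shControl cells, at 30.4 and 55.9 in shKDM4D, at 20.6 and 52.4 in shNFIB, with 19.2 and 75.5 in shMLL1 cells. The 4 values of day 5 lay above the 4 values of day 0 without overlap, a pattern not counted over all genes. The log2 ratio was 1.36 (1.28 to 1.44) in shControl, 0.88 (0.79 to 0.97) in shKDM4D, 1.35 (1.24 to 1.46) in shNFIB, with 1.97 (1.90 to 2.05) in shMLL1 cells. Because it was the one structural subunit past 1.5-fold higher in all 4 lines, its promoter is shown, from 250 bases before to 10 after the RefSeq start site (GRCm38.p6 chr17:31519865-31520124, plus strand), with a GC box (GGGCGG, the SP1 motif) in capitals.
*Ndufv3*: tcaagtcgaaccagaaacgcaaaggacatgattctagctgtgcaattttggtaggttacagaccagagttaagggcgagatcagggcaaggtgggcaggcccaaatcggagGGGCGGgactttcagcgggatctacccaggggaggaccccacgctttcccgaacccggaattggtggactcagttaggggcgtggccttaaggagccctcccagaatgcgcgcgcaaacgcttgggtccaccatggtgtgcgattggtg

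The other complex I subunits past 1.5-fold higher in 3 lines were *Ndufa7* and *Ndufa3*, both accessory. *Ndufa7* was at 22.9 and 33.2 RPKM in shControl, 19.2 and 30.5 in shKDM4D, 16.7 and 31.5 in shNFIB, with 16.7 and 33.9 in shMLL1 cells at day 0 and day 5. For *Ndufa3* the log2 ratios were 0.62, 0.42, 0.78 and 0.83, lines ordered as before. *Ndufa6* and *Ndufa1*, also accessory, were higher at day 5 in each line as well, *Ndufa6* by 0.42, 0.32, 0.63 and 0.63 and *Ndufa1* by 0.42, 0.30, 0.64 and 0.55 on the log2 scale. *Ndufa6* was lowest in shNFIB on both days (24.7 and 38.1 RPKM, against 38.6 and 51.7 in shControl). In the other direction, *Ndufa12*, an accessory subunit, was at 84.1 and 64.5 RPKM in shControl and 53.3 and 43.0 in shKDM4D but at 71.5 and 85.6 in shNFIB cells. *Ndufs8*, a core iron-sulfur subunit, was lower at day 5 in shControl (log2 ratio -0.41, -0.57 to -0.24) and shKDM4D (-0.39, -0.57 to -0.22) and not in shNFIB cells (0.19, 0.0073 to 0.37). The lowest complex I subunit of shKDM4D cells against shControl at day 5 was *Ndufa2*, an accessory subunit, at 64.5 against 106 RPKM (log2 ratio -0.71, -0.84 to -0.58). *Ndufb3*, the lowest subunit of complex I in shMLL1 against shControl at day 5, was at 20.9 against 25.2 RPKM (-0.27, -0.46 to -0.079). *Ndufv1*, the core subunit that binds NADH, stood at 20.5 RPKM in shKDM4D and at 29.3 to 31.5 RPKM in the other 3 libraries of day 5.

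The 8 complex I assembly factors, which help build the complex and leave it, were less uniform. Their medians of day 5 over day 0 were 0.10, -0.082, 0.27 and 0.55 in shControl, shKDM4D, shNFIB and shMLL1 cells. *Ndufaf1* was at 6.75 RPKM at day 0 and 13.9 at day 5 in shMLL1 cells, and at 7.75 and 10.8 in shControl. *Ndufaf7* was higher at day 5 in each line, with log2 ratios of 0.71, 0.58, 0.77 and 0.87. *Ndufaf3* was at 1.65 and 3.55 RPKM in shNFIB and at 1.92 and 2.08 in shControl, where the interval spanned 0 (0.11, -0.35 to 0.57). *Ndufaf5* was at 11.3 RPKM in shMLL1 and 7.95 in shControl at day 5 (0.50, 0.30 to 0.71), and *Ndufaf8* was one of the 2 assembly factor genes not below shControl in shKDM4D cells at day 5 (0.067, -0.20 to 0.34). *Ndufaf2* was lower at day 5 in all lines (9.49 and 6.13, 9.76 and 5.14, 10.6 and 7.36, 10.6 and 6.99 RPKM), with 65.6% of its exon length overlapped by a gene on the other strand. Since no source used here says whether strand was used in counting, its reads cannot be assigned with certainty. *Ndufaf6* was at 2.098 RPKM (56 reads) in shKDM4D at day 5 and at 4.61 (110 reads) in shControl, a log2 ratio of -1.14 (-1.63 to -0.66).

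Complex II is the succinate dehydrogenase of the citric acid cycle and has only nuclear subunits. *Sdha*, its flavoprotein, was at 53.6 and 68.9 RPKM in shControl cells at day 0 and day 5, at 54.6 and 60.1 in shKDM4D, at 48.6 and 51.0 in shNFIB, with 49.6 and 45.6 in shMLL1 cells. The highest value was thus that of shControl at day 5, and over it shMLL1 had a log2 ratio of -0.60 (-0.65 to -0.54) and shNFIB of -0.44 (-0.50 to -0.37). *Sdhb*, the iron-sulfur subunit, was at 26.8 and 23.8 RPKM in shControl, 22.8 and 16.7 in shKDM4D, 17.5 and 20.8 in shNFIB, with 30.5 and 28.7 in shMLL1 cells, so that it was higher at day 5 only in shNFIB. *Sdhc*, a membrane anchor, was higher at day 5 in all 4 lines, with log2 ratios of 0.55, 0.60, 0.49 and 0.46. It was the one complex II gene above shControl in shKDM4D cells at day 5 (33.5 against 29.7 RPKM, log2 ratio 0.17, 0.085 to 0.26). *Sdhd*, the other anchor, was at 67.6 RPKM in shControl and 49.9 in shKDM4D cells at day 5 (-0.44, -0.54 to -0.33).

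Complex III had the largest median deficit in shKDM4D cells at day 5, -0.52. *Uqcrh*, the hinge protein near cytochrome c (chr4:116066965-116075071, minus strand), was at 55.6 and 106 RPKM in shControl, 48.4 and 78.0 in shKDM4D, 41.4 and 59.1 in shNFIB, with 63.0 and 88.4 in shMLL1 cells. It was higher at day 5 in each line and lowest of all in shNFIB on both days. At day 5 the log2 ratio over shControl was -0.84 (-0.94 to -0.74) in shNFIB, -0.44 (-0.53 to -0.36) in shKDM4D, with -0.26 (-0.33 to -0.19) in the shMLL1 library. *Uqcr11*, a small subunit (chr10:80402997-80406830, minus strand), was at 50.6 and 85.7 RPKM in shControl, 43.9 and 45.6 in shKDM4D, 46.2 and 66.7 in shNFIB, with 51.5 and 59.9 in shMLL1 cells. Its day 0 values lay close together, whereas at day 5 shControl was the highest and shKDM4D the lowest (-0.91, -1.05 to -0.77). *Uqcrq*, another small subunit, behaved otherwise: 54.2 and 42.0 RPKM in shControl, 55.0 and 29.1 in shKDM4D, 29.3 and 39.6 in shNFIB, with 48.1 and 44.4 in shMLL1 cells. It was lower at day 5 in all lines but shNFIB, whose day 0 value was the second lowest of the 8. *Uqcrb* was nearly level, between 159 and 189 RPKM over the 8 libraries.

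The promoters of *Uqcrh* and *Uqcr11*, the complex III genes furthest below shControl at day 5 in shNFIB and in shKDM4D and shMLL1, respectively, are shown over the same window, with the ETS/GABPA motif (CCGGAAG, or CTTCCGG on the other strand) and the NRF1 motif (CGCATGCG) in capitals. They lie at GRCm38.p6 chr4:116075061-116075320 and chr10:80406812-80407071, both minus strand.
*Uqcrh*: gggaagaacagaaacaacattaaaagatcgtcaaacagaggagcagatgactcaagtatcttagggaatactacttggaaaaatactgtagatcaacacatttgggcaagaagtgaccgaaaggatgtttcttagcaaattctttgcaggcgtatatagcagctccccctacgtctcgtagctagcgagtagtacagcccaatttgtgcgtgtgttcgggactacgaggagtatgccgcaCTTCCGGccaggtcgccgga
*Uqcr11*: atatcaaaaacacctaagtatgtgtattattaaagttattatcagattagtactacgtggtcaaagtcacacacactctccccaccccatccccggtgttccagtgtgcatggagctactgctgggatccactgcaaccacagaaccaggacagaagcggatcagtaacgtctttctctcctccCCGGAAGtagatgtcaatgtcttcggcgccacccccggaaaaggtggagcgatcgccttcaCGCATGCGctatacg

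Complex IV, cytochrome c oxidase, has tissue isoforms for several subunits, and here the ubiquitous forms carried nearly all reads. *Cox4i1*, its largest nuclear subunit (chr8:120668222-120674207, plus strand), was at 128 and 198 RPKM in shControl, 91.2 and 87.9 in shKDM4D, 77.2 and 115 in shNFIB, with 113 and 162 in shMLL1 cells. All 3 knockdown lines were below shControl on both days, and the shKDM4D values of the 2 days did not differ beyond counting error (log2 ratio -0.054, -0.13 to 0.022). The gene *Emc8* overlaps 9.94% of its exon length on the other strand. At day 5 the log2 ratio over shControl was -1.17 (-1.23 to -1.10) in shKDM4D, -0.78 (-0.84 to -0.71) in shNFIB, with -0.29 (-0.33 to -0.24) in shMLL1 cells. At day 0 it was already -0.49 in shKDM4D and -0.73 in shNFIB cells. The isoform *Cox4i2* did not exceed 0.411 RPKM in any library (at most 7 reads). *Cox6c*, a small subunit, was at 52.1 RPKM in shControl at day 0 and between 65.5 and 66.3 in the 3 knockdown lines, but close to shControl in shNFIB and shMLL1 at day 5 (81.9, 81.7 and 83.2 RPKM). *Cox5a*, which joins *Cox4i1* early in assembly, was lower at day 5 in all 4 lines, with log2 ratios of -0.31, -0.45, -0.081 and -0.51, of which that of shNFIB spanned 0 (-0.25 to 0.087).

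*Cox6a2*, the heart and muscle isoform of subunit 6a (chr7:128205435-128206387, minus strand), was scarce but uneven. It was at 5.47 RPKM (99 reads) in shControl at day 0 and 0.0761 (1 read) at day 5, and at 2.71 (36 reads) and 0.272 (4 reads) in shKDM4D cells. In shNFIB it was at 0.630 (8 reads) and 1.21 (13 reads), and in shMLL1 at 0.154 (4 reads) and 2.01 RPKM (52 reads). The log2 ratio of day 5 over day 0 was -6.17 (-11.48 to -3.66) in shControl, -3.32 (-5.27 to -1.84) in shKDM4D, 0.94 (-0.44 to 2.41) in shNFIB, with 3.70 (2.26 to 5.63) in shMLL1 cells. Of 6 skeletal muscle markers, which summed to 0.315 to 1.67 RPKM per library, *Myod1* and *Myh1* were at 0 in all libraries and *Ckm* and *Myog* had at most 1 read. *Acta1*, skeletal actin, was at 1.39 RPKM (57 reads) and 0.168 (5 reads) in shControl and at 0.500 and 0.120 in shKDM4D cells, lower at day 5 as *Cox6a2* was. In shMLL1 *Acta1* was at 0.614 and 0.171 RPKM, against the direction of *Cox6a2* there. In shNFIB its log2 ratio was -1.09, also against that of *Cox6a2*, whose interval there spanned 0. All 6 markers, *Mylpf* included, summed to 1.67 and 0.315 RPKM in shControl and to 0.885 and 0.566 in shMLL1 cells at day 0 and day 5. The values of *Mylpf* by line are not given here, so *Acta1* does not stand for all 6. The part of *Acta1* in the result was not tested, and 10.3% of the exon length of *Cox6a2* is overlapped by *Itgad* on the other strand. The ubiquitous *Cox6a1* was at 88.5 and 111 RPKM in shControl and at 82.2 and 73.7 in shKDM4D cells. *Cox8b*, the isoform of heart, muscle and brown fat, passed the filter through 1 library only. It had 27 reads (3.88 RPKM) in shControl at day 5, 1 read in shKDM4D at day 5 and 0 in the other 6. The brown fat marker *Cox7a1* also peaked in the day 5 control library, on 13 reads. In shKDM4D cells at day 5 *Cox7a1* had 1 read, as did *Cox8b*. Unlike *Cox8b*, *Cox7a1* was at 0.472 RPKM (4 reads, none at day 0) in shNFIB and 0.637 RPKM (13 reads) in shMLL1 at day 5. The counting intervals of these 2 levels over the control spanned 0 (-3.49 to 0.28 and -2.21 to 0.25). With 0 reads set to a floor of 3, *Cox8b* was 12.4-fold higher at day 5 than at day 0 in shControl. On the same floor, *Cox8b* at day 5 was 7.38-fold lower in shNFIB and 17.8-fold lower in shMLL1 than in shControl cells. These folds make no allowance for counting error and are not lower bounds. The ubiquitous *Cox8a* was the most abundant member, between 323 and 498 RPKM, and was higher at day 5 in all lines (0.44, 0.11, 0.48 and 0.19). *Cox6b1* was at 107 RPKM in shControl and 77.2 in shKDM4D cells at day 5, and its testis isoform *Cox6b2* had at most 2 reads. *Cox7a2* and *Cox7a2l*, of which the second encodes a factor for supercomplex assembly, stayed between 27.8 and 34.6 and between 77.7 and 94.6 RPKM. *Ndufa4*, named for complex I but a complex IV subunit, stayed between 20.6 and 27.2 RPKM, and its relative *Ndufa4l2*, known as a hypoxia-induced gene, did not exceed 0.12 RPKM (at most 5 reads).

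**Figure D4:**
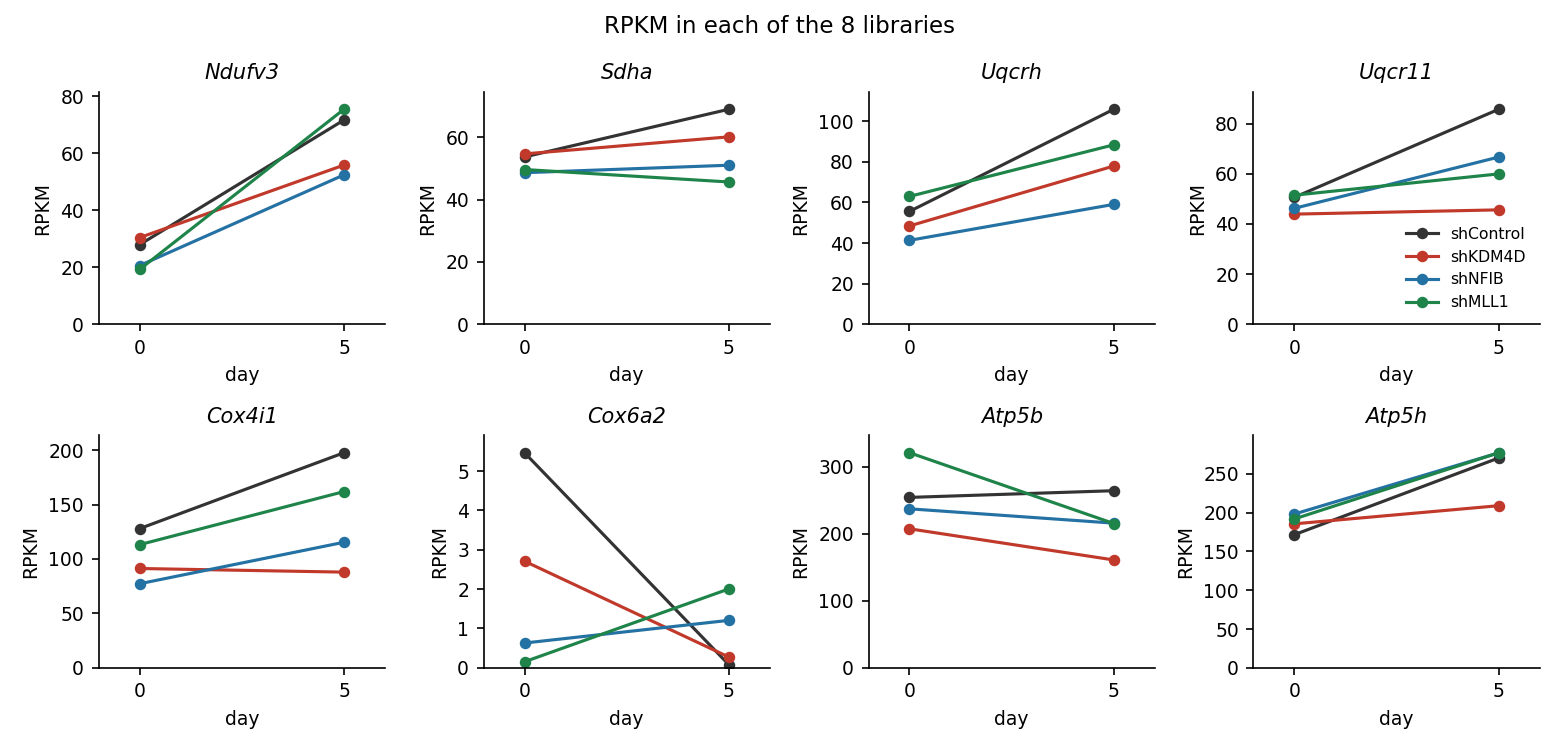
RPKM at day 0 and day 5 in the 4 lines (1 library per point) for 8 members of complexes I to V, each axis starting at 0. *Ndufv3* and *Uqcrh* are higher at day 5 in every line, *Cox4i1* and *Uqcr11* are highest in shControl at day 5 (198 and 85.7 RPKM), *Cox6a2* goes from 5.47 to 0.0761 RPKM in shControl and from 0.154 to 2.01 in shMLL1, and *Atp5b* goes from 321 to 215 RPKM in shMLL1.

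Complex V, the ATP synthase, has a catalytic F1 head and a membrane part (Fo) with its stalk, and these did not move alike. The 11 genes of Fo and the stalk had median log2 ratios of day 5 over day 0 of 0.25, 0.027, 0.40 and 0.12 in shControl, shKDM4D, shNFIB and shMLL1 cells, and the 5 genes of the F1 head 0.16, -0.055, 0.041 and -0.32. *Atp5b*, the catalytic beta subunit (chr10:128083273-128090391, plus strand), was at 254 and 264 RPKM in shControl, 207 and 161 in shKDM4D, 237 and 216 in shNFIB, with 321 and 215 in shMLL1 cells. The shMLL1 library of day 0 was the highest of the 8 and the shKDM4D library of day 5 the lowest. *Atp5a1*, the alpha subunit, was likewise highest in shMLL1 at day 0, at 249.8 RPKM, and lower there at day 5 (log2 ratio -0.32, -0.35 to -0.30). *Atp5d*, the delta subunit, was at 62.8 RPKM in shControl at day 5 and at 37.9, 54.8 and 46.8 in shKDM4D, shNFIB and shMLL1 cells. The remaining F1 genes of shMLL1 cells were higher at day 5, *Atp5e* (epsilon) at 8.02 and 16.9 RPKM and *Atp5c1* (gamma) at 119 and 147 RPKM.

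Of the membrane and stalk genes, *Atp5h*, a stalk subunit, was the one with the largest ratio in shControl cells, at 172 and 271 RPKM. It was at 186 and 209 RPKM in shKDM4D, at 198 and 277 in shNFIB, with 192 and 277 in shMLL1 cells, so that the shKDM4D library was the lowest of day 5. The genes *Atp5g1*, *Atp5g2* and *Atp5g3* encode the identical mature c subunit of the rotor and differed. *Atp5g1* was lower at day 5 in shControl (6.54 and 4.75 RPKM) and shKDM4D (5.53 and 3.79), *Atp5g2* was level in shControl (41.0 and 40.9), shKDM4D (40.9 and 41.7) and higher at day 5 in shNFIB (29.5 and 37.7) and shMLL1 (40.1 and 49.1), and *Atp5g3* was higher at day 5 in shNFIB (32.6 and 42.9) but lower in shMLL1 (46.0 and 40.4). *Atp5g2* was also the complex V gene with the highest ratio of shKDM4D to shControl at day 5 (0.027, -0.080 to 0.13). *Atp5j*, another stalk gene, was at 76.2 RPKM in shNFIB and 63.7 in shControl at day 5 (0.26, 0.19 to 0.32), and part of its exons overlaps *Gabpa* on the other strand. *Atp5s*, which carries the name of a coupling factor and is not counted as a subunit, was more than 1.5-fold higher at day 5 in all 4 lines (1.25 and 3.22, 1.43 and 2.72, 1.71 and 3.25, 1.34 and 2.32 RPKM), as was *Ndufv3* alone among the other 86. In the single lines 22.7%, 21.9%, 22.4% and 32.2% of all genes were more than 1.5-fold higher at day 5. The share of all genes past it in all 4 lines was not counted.

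The 13 protein genes of mitochondrial DNA, which encode the subunits of complexes I, III, IV and V made inside the organelle, were compared with the nuclear set. They were higher at day 5 in shControl (12 of 13, median log2 ratio 0.71) and in shNFIB cells (13 of 13, 0.36), and closer to level in shKDM4D (12 of 13 higher, 0.16). In shMLL1 cells all 13 were lower at day 5, with a median of -0.40, while the nuclear members had 0.24. *mt-Co1*, of complex IV, was at 1997 and 3709 RPKM in shControl and at 2479 and 2241 in shMLL1 cells. *mt-Nd1*, of complex I, was at 1459 and 2331 RPKM in shControl and at 1878 and 1077 in shMLL1 cells. Over shControl at day 5, the median of these genes was -0.81 in shMLL1, -0.13 in shKDM4D and -0.17 in shNFIB cells. The line with the low nuclear set and the line with the low mitochondrial set at day 5 were therefore not the same. The subunit and electron carrier genes *Cyc1* and *Cycs*, which the symbol rule does not take, were at 22.1 and 18.6 and at 19.1 and 17.4 RPKM in shControl cells, and at 28.5 and 20.2 and at 25.8 and 15.8 RPKM in shMLL1 cells.

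RefSeq promoter windows of 300 bases (GRCm38.p6, 250 before to 50 after the start site) were matched by symbol for 70 of the 87 members (75 windows) and searched on both strands for motifs of factors known to act on mitochondrial genes. The NRF1 motif CGCATGCG was found in 11 windows (14.7%), beside 3.99% of the windows of all genes passing the filter and 1.87% of all promoters. The motif CCGGAAG of the ETS factor GABPA was found in 18 (24.0%), beside 18.4% and 8.86%, and the YY1 motif AAGATGGC in 10 (13.3%), beside 4.63% and 2.75%. The estrogen-related receptor motif AAGGTCA was found in 8 (10.7%), beside 2.93% and 4.72%, and the SP1 motif GGGCGG in 32 (42.7%), beside 63.6% and 35.7%. In 21 of the 75 windows none of the 5 was found. The final letters of the ETS motif can be the first of the YY1 or receptor motif, which occurred in 0 of the windows. The printed *Uqcr11* window holds both the ETS and the NRF1 letters, one of 5 such windows. A match is a string of letters and not a measured binding site.

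The factors themselves were measured too. *Nrf1* was between 2.40 and 3.78 RPKM, *Gabpa* between 16.2 and 26.6, *Esrra* between 2.96 and 5.47 and *Yy1* between 11.99 and 17.6 RPKM over the 8 libraries. *Ppargc1a*, a coactivator of mitochondrial genes, was at 0.38 and 2.00 RPKM in shControl, 0.05 and 1.32 in shKDM4D, 0.17 and 1.83 in shNFIB, with 0.28 and 4.01 in shMLL1 cells, higher at day 5 in each. *Pprc1*, a related coactivator, was lower at day 5 in each line (5.39 and 2.07, 5.78 and 3.29, 7.69 and 4.58, 8.03 and 3.91 RPKM). *Ppargc1b* was the factor furthest below the control at day 5, whichever knockdown was compared. Its log2 ratios were -1.78 (shKDM4D, 29 reads), -2.10 (shNFIB, 17 reads) and -0.78 (shMLL1, 102 reads), against 89 control reads. Before induction the corresponding values were -0.65, -2.13 and 0.80. Medians over all listed factors at day 5 were -0.0085, 0.17 and 0.097. Whether *Ppargc1b* has a part in the differences was not tested. Of the 14 genes on the list of such factors, 2 were more than 1.5-fold higher and 1 lower at day 5 in shControl cells (all genes 22.7% and 17.5%), and the list medians were -0.17, -0.15, -0.18 and -0.41 in shControl, shKDM4D, shNFIB and shMLL1.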

How the data were processed

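Total RNA of 8 libraries, 1 for each of 4 lines at day 0 and day 5, was sequenced with stranded kits. The authors aligned the reads to the mouse genome (GRCm38/mm10, per the labels) in CLC Genomics Workbench and deposited 1 RPKM value per gene and library. The annotation release, the strand setting and the treatment of reads shared with processed pseudogenes are not given in the sources used here.

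Whole reads and library sizes were recovered from the deposited RPKM values with GENCODE M21 exon lengths: 96.2% to 96.6% of the values checked came within 0.02 of a whole read. This step was tested on simulated data. Log2 ratios of RPKM were taken without a pseudocount, with exact Clopper-Pearson intervals from the reads, in 10 comparisons. With 1 library per condition the 10 comparisons have no replicates and were not tested. A fit over the 8 libraries with line and day as terms, which would test a day difference common to the lines, was not run. Genes over 1 RPKM in at least 1 library were kept, and 0 reads was read as a floor of 3. Counts of members past 1.5-fold stand beside the percentage of all genes past it. Promoters came from RefSeq and 72 of 93 members matched.

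The members and gene lists were chosen with earlier results of these data known. Named genes were, per complex, the members with the highest and lowest ratio in shControl and in each knockdown over shControl at day 5 (10 RPKM or more), members past 2-fold with at least 30 reads or 1 RPKM, isoform pairs and complex II. *Ndufa1*, *Ndufa3*, *Ndufa6*, *Ndufaf7*, *Ndufs8*, *Ndufv1*, *Atp5b*, *Atp5c1*, *Atp5g1* and *Atp5g3* were added after their values were seen. Alternatives were another scaling, pseudocount, filter, fold and choice of members. Python 3.11.15, numpy 2.4.6, pandas 2.3.3, scipy 1.17.1 and matplotlib 3.10.9 were used.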

Additional observations from a re-analysis of the deposited data

Results flagged for a closer look

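The median log2 ratio of day 5 over day 0 had opposite signs in shKDM4D and shControl cells for complex I (-0.040 against 0.29), complex III (-0.052 against 0.33), complex IV (-0.022 against 0.24) and the 87 members together (-0.0035 against 0.26). *Cox6a2* had a ratio of 3.70 in shMLL1 and -6.17 in shControl cells, on 52 and 1 reads at day 5. With 1 library per condition, none of these differences between lines was tested.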

How the results depend on the processing

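The median of shKDM4D over shControl at day 5 was between -0.28 and -0.32 in every alternative. Changes of scaling mattered most for shMLL1 cells, day 5 over day 0, whose all-gene median of 0.17 was -0.093 after quantile scaling. Their members' median of 0.24 was 0.15 with median-of-ratios, 0.047 with quantile scaling and 0.11 without ribosomal RNA-like and mitochondrial reads. Under these 3 scalings complex II was at -0.067, -0.12 and -0.11, complex III at -0.036, -0.081 and -0.074, complex IV at 0.070, -0.038 and 0.031, and complex V at 0.021, -0.057 and -0.018, and complex I was at 0.14 with quantile scaling and 0.20 without those reads. In shControl cells quantile scaling gave 0.13 for the members and 0.24, 0.20, 0.14 and 0.10 for complexes II to V, and leaving out those reads gave 0.27, 0.14 and 0.14 for complexes II, IV and V. In shNFIB cells quantile scaling gave 0.16 and 0.17 for complexes IV and V. In shMLL1 over shControl at day 5, complex V was at -0.19 with median-of-ratios and -0.20 with quantile scaling. The cause of these shifts was not tested.

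Both folds, 1.5 and 2, were planned. Past 2-fold, day 5 over day 0, members higher numbered 3 in shControl, 1 in shKDM4D, 2 in shNFIB, with 6 in shMLL1 (all genes 13%, 12.8%, 12.6% and 20.4%), and members lower 1, 1, 0 and 0 (all genes 8.56%, 8.44%, 4.96% and 6.89%). Over shControl, 1 member was lower in each knockdown line at day 0 (all genes 4.26%, 6.05% and 7.43%), 3 were lower in shKDM4D at day 5 (all genes 4.57%), and 1 was higher and 1 lower in shNFIB (all genes 5.54% and 5.67%) and in shMLL1 (all genes 5.25% and 4.02%). At 1.5-fold, leaving out those reads gave 6 higher in shControl, 1 lower in shNFIB and 4 lower in shMLL1, quantile scaling 8 higher and 5 lower in shMLL1, and median-of-ratios 3 lower there. No named gene's called ratio reversed.

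No paired analysis was possible because the 10 comparisons set 1 library against 1 and the labels give no replicate numbers, and for the same reason no replicate was left out. A day difference common to the lines, with the line as a block, was not tested. Intervals cover counting error only. Reads of members under 1 RPKM were too few to rank the lines.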

Other observations

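Assembly factors that the symbol rule does not take, 37 of which passed the filter, had median log2 ratios of day 5 over day 0 of 0.13 in shControl (25 higher, 12 lower), 0.057 in shKDM4D (20 and 17), 0.32 in shNFIB (30 and 7) and 0.46 for shMLL1 (31 and 6). *Cox14*, a complex IV assembly factor, was at 24.9 RPKM at day 0 and 54.3 at day 5 in shControl, 33.5 and 52.4 in shKDM4D, 20.2 and 39.2 in shNFIB, and at 21.8 and 43.8 for shMLL1. *Tmem126b*, of complex I assembly, was at 6.90 and 12.6 RPKM in shControl and 4.17 and 11.5 in shMLL1. *Cox10*, a heme-modifying enzyme of complex IV assembly, was lower at day 5 in shControl (4.54 and 2.28 RPKM) and nearly level in shNFIB cells (4.30 and 4.05). *Tfam*, which packages mitochondrial DNA, was at 8.14 RPKM in shKDM4D at day 5 and between 10.99 and 12.4 RPKM in the other libraries of that day.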
